A study of Mus musculus with 6 samples.

Results

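Transcripts of 50 genes for splicing factors and heterogeneous nuclear ribonucleoproteins (hnRNPs) were measured in 10T1/2, a mouse embryonic fibroblast line. The genes were chosen by symbol alone, as those starting with Hnrnp, Srsf, Snrp, Sf3a or Sf3b together with Sf1, U2af1 and U2af2. They were taken from probe sets that the platform annotation assigns to exactly 1 gene, which gave 147 probe sets and 50 of the 18194 genes measured. No treatment is named for the cells, which were kept in DMEM supplemented with 10% FBS until 80% confluency. Total RNA of 3 samples, numbered 1, 4 and 5 in the labels, was hybridised to 1 Affymetrix MOE430A and 1 MOE430B array per sample. All 3 samples belong to 1 group, so each sample was set against the others as a description and no test was made. Nothing in the labels says if they came from separate cultures, and the 3 best samples were asked for, so the differences given here may be technical and the samples are not a random draw. MOE430A held 120 of the probe sets, for 47 of the genes, and MOE430B held 27, for 20 of the genes. 17 genes were on both designs, and Hnrnpa0, Snrpf and Srsf12 were on MOE430B only. Hnrnpa3, Snrpa, Snrpd1 and Snrpd2 were named only together with other genes and were not analysed here.

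Introns are removed by the spliceosome, which assembles from small nuclear ribonucleoproteins (snRNPs) on each intron. The Sm proteins form a ring on the U1, U2, U4 and U5 RNAs, the U1 snRNP reads the start of the intron, and SF1 with the U2AF proteins marks the branch site and the end of the intron before the U2 snRNP, with its SF3a and SF3b complexes, takes over. SR proteins bind exons and mostly favour their inclusion, hnRNPs coat the nascent transcript and often oppose it, and the balance of both families helps to set which exons a cell keeps. Many genes of both families carry highly conserved exons whose inclusion targets their own transcripts for decay.

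Each value is a signal intensity on a linear scale, scaled by the authors on each array to a common mean. A probe set was called detected where its signal lay above a background limit on 3 of 3 arrays of a design. That limit was the 95th percentile of probe sets for tissue-restricted genes, at 1057, 1364 and 1012 for samples 1, 4 and 5 on MOE430A, where 130 probe sets set it. On MOE430B it rested on only 13 probe sets and is imprecise, at 1974, 1211 and 1677. The 3 samples did not resemble each other in every respect. The 18 proliferation markers whose mean signal passed the limit on MOE430A were all lowest in sample 1, with a summed signal over the 24 measured of 33902 in sample 1, 153001 in sample 4 and 134752 in sample 5. Of 19 fibroblast markers, 14 were detected there, and their summed signal was 301685 in sample 5, against 693208 in sample 1 and 734611 in sample 4. Col1a1, Col1a2 and Sparc were among the 12 fibroblast markers at least 2-fold lower in sample 5 than in both others. Markers of other cell types were mostly not detected, with 1 of 14 leukocyte, 0 of 12 endothelial, 0 of 12 epithelial and 1 of 13 neural markers detected on MOE430A. On MOE430B, the epithelial marker Epcam had 139544 in sample 4, against 31382 in sample 1 and 29693 in sample 5. The neuronal marker Rbfox3 was detected there near the limit, and Nefl had 10222 in sample 5, against 1453 in sample 1 and 1913 in sample 4. On MOE430A, Epcam, Rbfox3 and Nefl were measured and not detected. Their part in the splicing gene signals was not tested. The ratio of 3′ to 5′ probe sets, a sign of RNA degradation or short labelled products, was 24.7 for Gapdh in sample 1, 15.0 in sample 4 and 10.6 in sample 5 on MOE430A. Actb gave 17.5, 9.57 and 8.68 for samples 1, 4 and 5, so sample 1 had the highest ratio for both. The MOE430A array of sample 5 was run on another fluidics station than those of samples 1 and 4, so station and sample cannot be told apart for it. In such bulk RNA, fewer cells that use a gene and less RNA per cell cannot be told apart either.

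Nearly all of the splicing factor and hnRNP genes were detected. A gene counted as detected when any of its probe sets was, and this held for 45 of 50 (90%), against 34.3% of all 18194 genes. By design, it held for 42 of 47 on MOE430A, where 30.2% of all genes were detected, and for 10 of 20 on MOE430B, where the share was 31.1%. All 19 hnRNP genes but Hnrnpl were detected, as were 8 of 10 SR protein genes and 19 of 21 genes for snRNP and branch site proteins. The 6 hnRNP A/B and D genes and the 5 hnRNP C, F and H genes were detected throughout. Within a gene, probe sets were less uniform, since 82 of the 147 were detected and 18 genes had all of theirs detected. Of all probe sets, 27.5% to 34.0% lay above the limit on any single MOE430A array. On MOE430B this share was 25.5% to 40.0%. The share of all genes with every probe set detected was not counted. Uniformity within a gene is therefore no result about the splicing genes.

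The 5 genes that were not detected differ in how far they lay from the limit. Snrpn, which encodes the SmN protein of neurons and is imprinted, had signals of 117, 101 and 91.8 in samples 1, 4 and 5, far below the limit on every array. Hnrnpl, a regulator that binds CA repeats, had 670, 647 and 778 on MOE430A. Srsf12, an SR protein gene on MOE430B only, had 941, 527 and 70.1. Sf3a1, a subunit of the U2 snRNP, had 1279, 951 and 1056 by its brighter MOE430A probe set, which passed the limit on 2 arrays. Srsf10, an SR protein that can act as a repressor, had 949, 1587 and 2655 and lay above the limit in samples 4 and 5 but not in sample 1. Not detected therefore covers both signals near 0 and signals just under the limit.

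Between the samples, the splicing factor and hnRNP genes were mostly highest in sample 5 on MOE430A. The comparison used 1 probe set per gene, the one of highest mean log2 signal, and genes whose mean passed the limit, which left 43 of these genes among 4672 in all. Sample 5 gave the highest signal for 27 of the 43 (62.8%), against 34.4% of the 4672 genes. It gave the lowest for 9 of the 43 (20.9%), against 40.4% of all. The deviation, defined as the log2 signal of a sample minus the mean log2 signal of the others, had a median over the 43 genes of 0.39 in sample 5 (1.31-fold), against −0.039 over all genes. It was above 0 for 33 of the 43. Sample 1 showed the opposite, with a median of −0.17 over these genes, against 0.026 over all. It was lowest for 21 of the 43 (48.8%), against 34.3% of all genes, and highest for 6 (14.0%), against 35.9%. In sample 4 the median was −0.023, against 0.032 over all. It was highest for 10 of the 43 (23.3%), against 29.7% of all genes, and lowest for 13 (30.2%), against 25.3%.

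**Figure D1:**
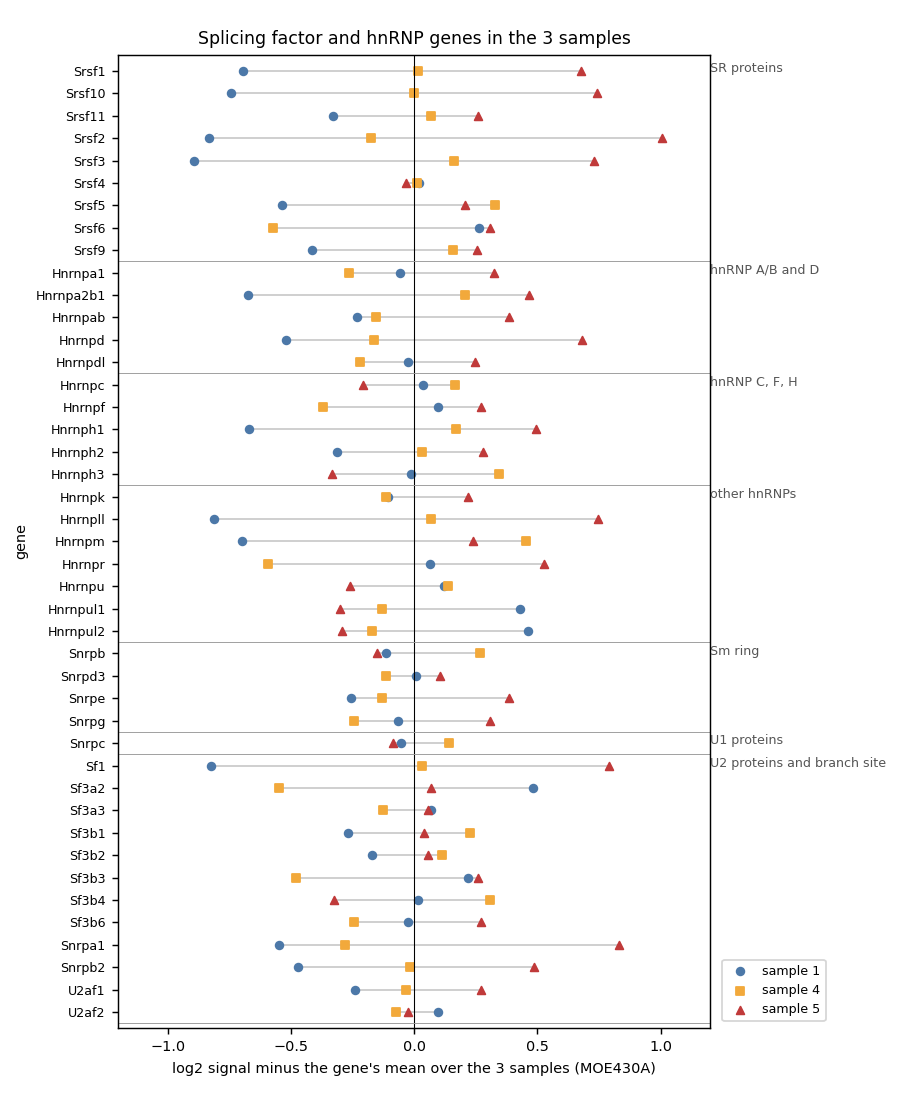
Signals of the 43 splicing factor and hnRNP genes past the mean filter on MOE430A. Each row is a gene by its representing probe set, the x axis gives log2 signal minus the gene's mean over the 3 samples, and points are samples 1 (circles), 4 (squares) and 5 (triangles). Sample 5 lies rightmost for 27 of the 43 genes, and Srsf2 and Srsf3 have the widest lines.

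Most of these differences were moderate. The highest sample exceeded the lowest by a median of 1.56-fold over the 43 genes, against 1.63-fold over all 4672, and by at least 2-fold for 13 of them (30.2%), against 29.3% of all. A gene was called set apart where 1 sample was at least 2-fold above or below both others. Only Srsf2 and Snrpa1 were set apart above in sample 5 (4.65%), near the share of all genes (4.00%). Srsf3 was set apart below in sample 1 (2.33%), against 3.79% of all genes, and no gene was set apart in the other directions, where the shares of all genes were 2.68% above in sample 1, 0.557% above and 0.985% below in sample 4, and 5.27% below in sample 5. Shares near or below those of all genes are no result about the splicing genes. At 1.5-fold, 10 of the 43 were set apart below in sample 1 (23.3%), against 9.76% of all genes, and 7 above in sample 5 (16.3%), against 10.6%.

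**Figure D2:**
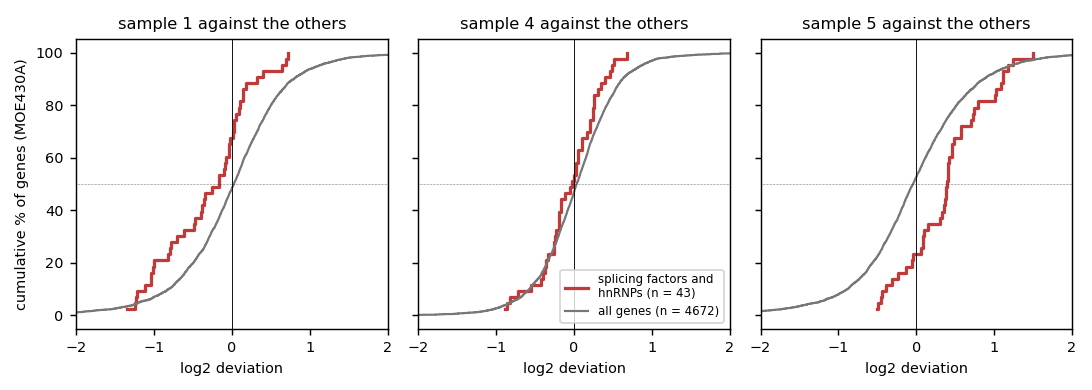
Cumulative distributions of the log2 deviation of each sample from the mean of the others on MOE430A, for the 43 splicing factor and hnRNP genes (thick red) and all 4672 genes past the filter (grey). The x axes are limited to 2 log2 units on either side, and a few genes of the grey curve lie outside. The red curve lies right of the grey one over most of its length in sample 5, with a median of 0.39, and left of it in sample 1, with a median of −0.17.

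The samples that stood apart were left out in turn. With sample 1 left out, 30 of 43 genes were higher in sample 5 than in sample 4, against 47.6% of all genes, and the median difference was 0.31. In that comparison 2 of the 43 (4.65%) were at least 2-fold higher in sample 5, against 7.76% of all genes. With sample 4 left out, 31 of 44 genes were higher in sample 5 than in sample 1, against 48.0% of all genes, and the median difference was 0.35. Here 10 of the 44 (22.7%) were at least 2-fold higher in sample 5, against 11.1% of all genes. With sample 5 left out, the median of sample 1 against sample 4 was −0.21. The higher signals of sample 5 were therefore seen against each of the others. The 3′ to 5′ ratios and the proliferation markers set sample 1 apart, and the fibroblast markers set sample 5 apart, and what they contribute to these counts was not tested.

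Among the roles, the SR proteins differed most between samples. Of the 9 SR protein genes past the filter on MOE430A, 7 were highest in sample 5, against 34.4% of all genes. In sample 1, 7 of the 9 were lowest, against 34.3% of all genes. The median deviation of the 9 was 0.46 in sample 5 and −0.80 in sample 1. Their highest sample exceeded the lowest by a median of 1.84-fold, against 1.63-fold over all genes. Srsf1, which binds purine-rich exonic enhancers, had a signal of 13980 in sample 5, against 5400 in sample 1 and 8844 in sample 4. That is a mean of 9408 ± 4318 (SD, n = 3) and a deviation of 1.02 in sample 5. Its 3 probe sets past the filter were each highest in sample 5 and lowest in sample 1, with deviations of 1.02 to 1.42 in sample 5. Srsf3, the smallest of the classical SR proteins, had 7024 in sample 5, against 2277 in sample 1 and 4740 in sample 4. Its 3 probe sets past the filter ordered the samples by the same extremes, with deviations of 1.00 to 1.29 in sample 5. Srsf2, known as SC35 and a marker of nuclear speckles, had 5068 in sample 5, against 1419 in sample 1 and 2239 in sample 4, a mean of 2909 ± 1914 (SD, n = 3). By representing probe sets, its deviation of 1.51 was the largest of the 43 genes in sample 5, and its range of 3.57-fold the widest. The other Srsf2 probe set past the filter gave only 1852 in sample 5, against 1418 in sample 1 and 1362 in sample 4, so the size of the difference depends on the probe set. Srsf10 had the next largest deviation of the family, 1.11 in sample 5.

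The remaining SR genes differed less or otherwise. Srsf9 had 7594 in sample 5, against 4785 in sample 1 and 7109 in sample 4. Srsf11 had 3209, against 2136 and 2808 in samples 1 and 4. Both were highest in sample 5, by a smaller margin than Srsf1. Srsf5 was highest in sample 4, at 11487, with 6317 in sample 1 and 10553 in sample 5. Srsf4 was level, at 3131 in sample 5, 3247 in sample 1 and 3235 in sample 4, a range of 1.04-fold that was the narrowest of the 43 genes. On MOE430B, Srsf6 and Srsf11 were the SR genes past the filter and both were highest in sample 1. Srsf11 had 1425 in sample 5 there, against 2009 in sample 1 and 1944 in sample 4, the reverse of its MOE430A order. The MOE430B probe set of Srsf1 lay below the limit, with 973 in sample 5, 254 in sample 1 and 240 in sample 4.

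**Figure D3:**
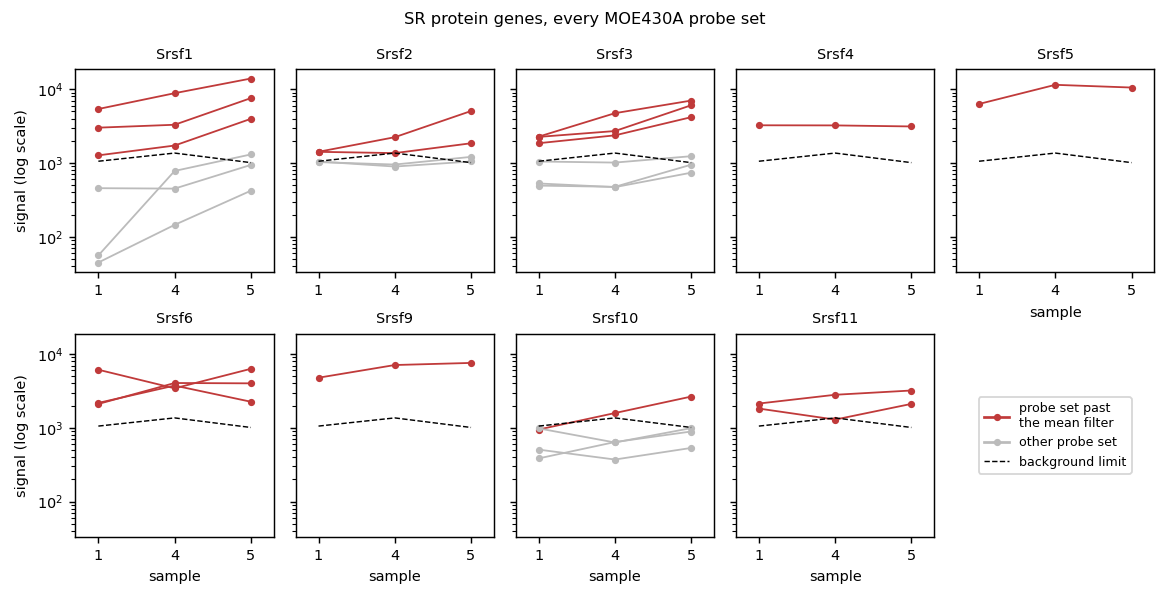
Signals (log scale) of every MOE430A probe set of the 9 SR protein genes with 1 past the mean filter, in samples 1, 4 and 5. Lines join the 3 values of a probe set and stand for no order of the samples, red marks probe sets past the filter, grey the others, and the dashed line is the background limit. Srsf1 and Srsf3 have 3 red lines each that end highest in sample 5, while the 3 of Srsf6 cross.

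Srsf1, Srsf2, Srsf3 and Srsf4 were picked after their signals were seen, and a link between promoter sequence and signal was not tested. The 300 bases around the annotated start of each are shown 5′ to 3′ on the strand of the gene, from RefSeq on GRCm38.p6. They lie at chr11:88047123-88047422 (plus strand), chr11:116853045-116853344 (minus strand), chr17:29032410-29032709 (plus strand) and chr4:131873387-131873686 (plus strand, the first of 3 listed starts). Capitals mark CCAAT, the letters of the CCAAT box, and CCGGAA, the core of ETS family sites, each on either strand (ATTGG and TTCCGG).
Srsf1: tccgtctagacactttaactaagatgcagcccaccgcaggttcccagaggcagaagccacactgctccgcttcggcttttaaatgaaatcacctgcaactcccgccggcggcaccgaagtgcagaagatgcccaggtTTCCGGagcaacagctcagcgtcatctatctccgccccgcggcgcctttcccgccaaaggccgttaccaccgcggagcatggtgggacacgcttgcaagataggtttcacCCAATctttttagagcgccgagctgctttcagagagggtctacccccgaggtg
Srsf2: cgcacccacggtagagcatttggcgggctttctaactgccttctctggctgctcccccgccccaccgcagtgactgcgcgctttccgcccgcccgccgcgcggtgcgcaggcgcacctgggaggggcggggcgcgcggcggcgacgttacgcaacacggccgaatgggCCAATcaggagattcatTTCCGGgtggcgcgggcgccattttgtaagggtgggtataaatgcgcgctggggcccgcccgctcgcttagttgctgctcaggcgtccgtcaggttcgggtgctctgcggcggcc
Srsf3: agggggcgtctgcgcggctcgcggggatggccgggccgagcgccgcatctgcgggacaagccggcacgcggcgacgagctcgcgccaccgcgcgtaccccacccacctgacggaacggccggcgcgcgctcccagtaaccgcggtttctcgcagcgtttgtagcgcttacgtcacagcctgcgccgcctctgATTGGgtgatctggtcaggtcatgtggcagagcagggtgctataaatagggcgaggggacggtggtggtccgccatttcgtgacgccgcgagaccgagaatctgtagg
Srsf4: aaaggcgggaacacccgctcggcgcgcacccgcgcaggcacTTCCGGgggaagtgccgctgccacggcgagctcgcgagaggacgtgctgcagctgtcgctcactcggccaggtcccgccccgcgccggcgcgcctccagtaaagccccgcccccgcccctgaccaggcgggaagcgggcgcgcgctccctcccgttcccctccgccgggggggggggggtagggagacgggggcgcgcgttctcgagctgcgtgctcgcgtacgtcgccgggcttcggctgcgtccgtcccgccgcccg
Srsf1 and Srsf2 each hold 1 match to both motifs, Srsf3 holds 1 to CCAAT only, and Srsf4 holds 1 to CCGGAA only.

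A promoter was listed for 44 of the 50 genes, and each motif was searched on both strands. CCGGAA was present in 23 of the 44 (52.3%), against 29.7% of 6487 promoters of genes past the filter on either design and 15.2% of all 27025. CCAAT was also present in 23 (52.3%), against 38.4% and 37.9%. GGGCGG, the core of the GC box, was present in 30 (68.2%), against 66.3% and 35.9%. TATAAA was present in 5 (11.4%), namely Hnrnpab, Hnrnpm, Sf3b3, Srsf2 and Srsf3, against 7.09% and 14.2%. TTTCCCGC, an E2F-type sequence that can share bases with GGGCGG, was present in Hnrnpul1, Srsf1, Srsf10 and U2af1 (9.09%), against 2.16% and 1.11%. AAGATGG was in Hnrnpul1 and Sf3a1, 2 of the 44 (4.55%), against 7.99% and 6.48%. TTTGGCGC was in 0 of the 44, against 1.08% and 0.537%. Such matches are letters in a window and show no binding.

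The hnRNPs gave a median deviation of 0.41 in sample 5 over 17 genes past the filter on MOE430A. Of the 17, 11 were highest in sample 5, against 34.4% of all genes. By their representing probe sets, all 5 genes of the A/B and D class were highest in sample 5, with a median of 0.58. That median is the value of Hnrnpab, whose probe sets disagreed, with deviations of −0.81 to 1.53 in sample 5. Hnrnpd, which encodes AUF1, a binder of AU-rich elements that control mRNA decay, had 7698 in sample 5, against 3342 in sample 1 and 4287 in sample 4. Hnrnpa2b1, a nuclear and transport factor for RNA, had 23774, against 10770 in sample 1 and 19871 in sample 4. Hnrnpa1, which acts on many exonic silencers, had 9564, against 7344 in sample 1 and 6366 in sample 4. The margin was thus about 2-fold for Hnrnpd, with a deviation of 1.02, and small for Hnrnpa1, with 0.48. Hnrnpdl had 40381 in sample 5, against 33431 in sample 1 and 29224 in sample 4. Of its 5 MOE430A probe sets past the filter, 4 were highest in sample 5, and the deviations there were −0.081 to 1.10. Another was highest in sample 1, with 2329, against 1862 in sample 4 and 1968 in sample 5. On MOE430B, Hnrnpdl was highest in sample 5, at 8994, against 8518 in sample 1 and 6679 in sample 4. Hnrnpa0, measured on MOE430B alone, was highest in sample 4, with 39540, against 28913 in sample 1 and 35550 in sample 5.

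Hnrnpll, best known in T cells for skipping of variable exons of the Ptprc transcript, was the most variable hnRNP gene by representing probe sets. It had 9852 in sample 5, against 3347 in sample 1 and 6159 in sample 4, a mean of 6453 ± 3263 (SD, n = 3). Both its probe sets past the filter gave the same order, with deviations of 1.12 and 0.89 in sample 5. Ptprc itself was not detected. Hnrnph1, a binder of G runs, had 11091 in sample 5, against 4949 in sample 1 and 8857 in sample 4. Hnrnpm had 7748 in sample 5, against 4044 in sample 1 and 8995 in sample 4, so sample 1 was low and the others were close. Hnrnpr had 4286 in sample 5, against 3114 in sample 1 and 1977 in sample 4.

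Some hnRNP genes went the other way. Hnrnpc, whose protein binds uridine tracts and is abundant in nuclei, was lowest in sample 5, with 55449, against 65612 in sample 1 and 71785 in sample 4. Hnrnph3 was lowest there too, with 1381, against 1724 in sample 1 and 2205 in sample 4. Hnrnpul1 had 4013 in sample 5, against 6647 in sample 1 and 4513 in sample 4. Hnrnpu, Hnrnpc, Hnrnph3, Hnrnpul1 and Hnrnpul2 were the 5 of 17 that were lowest in sample 5, with deviations of −0.31 to −0.50. Of all genes, 40.4% were lowest in sample 5. Hnrnpu was lowest by its brightest probe set and highest in sample 5 by another.

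Genes for snRNP and branch site proteins showed the smallest shift, with a median deviation of 0.16 in sample 5 over 17 genes on MOE430A. Of the 17, 9 were highest in sample 5, against 34.4% of all genes. The early factors of the branch site were highest in sample 5 in part. Sf1, which binds the branch site sequence, had 3635 in sample 5, against 1189 in sample 1 and 2154 in sample 4, a deviation of 1.18. On MOE430B its brightest probe set gave 304342 in sample 5, against 264173 in sample 1 and 303117 in sample 4, and can match several transcripts. Samples 4 and 5 were thus level there, and the MOE430B deviation in sample 5 was only 0.11. The other Sf1 probe set past the filter on MOE430B was highest in sample 4, with 5324, against 1836 in sample 1 and 4528 in sample 5. Sample 1 was lowest by each of these probe sets, and the highest sample was not shared. U2af1, the subunit that contacts the end of the intron, had 4992 in sample 5, against 3500 in sample 1 and 4036 in sample 4. U2af2, its partner on the polypyrimidine tract, had 6081, against 6620 in sample 1 and 5873 in sample 4, a range of 1.13-fold.

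The U2-specific proteins Snrpa1 and Snrpb2, which bind a stem-loop of U2 RNA together, were both highest in sample 5. Snrpa1 had 6452 in sample 5, against 2480 in sample 1 and 2990 in sample 4, and its deviation was 1.24. Its other probe set past the filter had 2400, against 1091 in sample 1 and 1614 in sample 4. Snrpb2 had 3627 in sample 5, against 1872 in sample 1 and 2565 in sample 4. The SF3a and SF3b subunits that surround them in the U2 snRNP varied in no common direction. Sf3a3 had 1851 in sample 5, 1868 in sample 1 and 1633 in sample 4. Sf3a2 was highest in sample 1, with 38606, against 18894 in sample 4 and 28976 in sample 5. Within SF3a, then, Sf3a3 was level and Sf3a2 low in sample 4. Sf3b3 had 2385 in sample 4, against 3871 in sample 1 and 3988 in sample 5. Sf3b4 was lowest in sample 5, at 8647, against 10948 in sample 1 and 13382 in sample 4. Sf3b1, which holds the branch site helix, had 8421 in sample 4, against 5972 in sample 1 and 7384 in sample 5. Its other probe set past the filter was level, with 1978 in sample 4, against 2071 in sample 1 and 2023 in sample 5. On MOE430B sample 4 was lowest, at 8812, against 10119 in sample 1 and 10917 in sample 5. The second Sf3b4 probe set was level too, at 2954 to 3141. Subunits of 1 complex were thus highest in different samples by their brightest MOE430A probe sets. Other probe sets did not all repeat this.

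Proteins of the Sm ring and U1 were comparatively level by their brightest probe sets. Snrpd3 had 10589 in sample 5, 9911 in sample 1 and 9111 in sample 4, a range of 1.16-fold. Its other probe set past the filter had 3099 in sample 1, against 1206 in sample 4 and 1612 in sample 5, a range of 2.57-fold, so this gene was level by 1 probe set only. Snrpc, the U1 protein that supports pairing with the start of the intron, had 10239 in sample 5, 10472 in sample 1 and 11992 in sample 4, a range of 1.17-fold. Srsf4, U2af2, Sf3a3, Snrpd3 and Snrpc were the 5 narrowest of the 43 genes by their representing probe sets. Snrpe had 39875 in sample 5, against 25528 in sample 1 and 27854 in sample 4, and was the widest of the ring on MOE430A at 1.56-fold. Snrpg had 29968, against 23189 in sample 1 and 20470 in sample 4. Snrpb was highest in sample 4 on MOE430A, with 5029, against 3865 in sample 1 and 3763 in sample 5. On MOE430B it was highest in sample 5, with 40046, against 26492 in sample 1 and 31284 in sample 4, so its 2 probe sets disagreed. Snrpf, on MOE430B alone, had 19176 in sample 5, against 12972 in sample 1 and 17167 in sample 4.

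MOE430B gave a smaller and less certain view. Of these genes 11 passed the filter among 4033, with a median deviation of 0.21 in sample 5, against 0.038 over all genes, and 6 of 11 were highest there (54.5%), against 36.1% of all genes. It changed with the processing. With sample 1 left out the median was 0.083, with the probe sets ending in _s_at or _x_at left out it was −0.033 over 5 genes, and after quantile normalisation 4 of 11 were highest in sample 5 (36.4%), against 35.5% of all genes. Sample 1 was lowest for 7 of 11 (63.6%), against 36.9% of all, and highest for 2 (18.2%), against 32.3%. Sample 4 was highest for 3, against 31.5% of all genes, and lowest for 3, against 29.4%, and sample 5 was lowest for 1, against 33.7%. None of the 11 was set apart by 2-fold in any direction. The shares of all genes set apart above and below were 1.76% and 4.44% in sample 1, 1.19% and 2.38% in sample 4, and 3.12% and 3.97% in sample 5. By representing probe sets, the widest was Sf3b2, a subunit of SF3b, with 23596 in sample 4, against 10709 in sample 1 and 14451 in sample 5. Sf3b5, a small subunit of the same complex, had 12235 in sample 5, against 5717 in sample 1 and 9546 in sample 4. Sf1, Sf3b1 and Hnrnpul2 were narrowest, with ranges of 1.15-fold, 1.24-fold and 1.30-fold. Of the 8 genes past the filter on both designs, the deviation had the same sign for 4 in sample 1, 5 in sample 4 and 5 in sample 5.

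The 77 probe sets common to both designs and detected on both gave a measure of array error on the same RNA. The SD of the difference of their deviations between designs was 0.39 log2 units in sample 1, 0.32 in sample 4 and 0.30 in sample 5. The deviations were also offset. The median of MOE430A minus MOE430B was 0.35 in sample 1, −0.15 in sample 4 and −0.22 in sample 5. These offsets are similar in size to the median deviations of the splicing genes. Both measures cover the arrays only and not the spread between cultures. Signals of the common probe sets were 3.33-fold to 3.98-fold higher on MOE430B, so levels were not compared across designs. Hnrnpul2 had a common probe set, with 953, 1145 and 1238 in samples 1, 4 and 5 on MOE430A and 5032, 6518 and 5599 on MOE430B. Sample 1 was lowest on both, and the highest sample differed.

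Probe sets of 1 gene often disagreed. Of 21 genes with several probe sets past the filter on MOE430A, 12 had all of them on the same side of 0 in sample 5 (57.1%), against 71.3% of 1152 such genes in all. The 12 comprised 11 with every probe set higher and 1 lower. In sample 1 the count was 10 (47.6%), against 59.2% of all, and in sample 4 it was 5 (23.8%), against 58.9%. In 7 of the 21 genes, probe sets differed in sign by over 1 log2 unit in some sample. The share of all genes was not counted for this, so the 7 are no result about the splicing genes. Hnrnpab was the extreme case. Its brightest probe set had 52392 in sample 5, against 34162 in sample 1 and 36041 in sample 4. Another had 5064, against 1119 in sample 1 and 2759 in sample 4. The opposite order was seen in another, with 1985 in sample 5, against 4521 in sample 1 and 2673 in sample 4. No single direction can be given for this gene from these probe sets.

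Srsf6 gave 6318 in sample 5, against 6139 in sample 1 and 3436 in sample 4, by its brightest probe set. Another had 2260, 2178 and 3744 in samples 5, 1 and 4, where sample 4 was highest. The MOE430B probe set had 19851 in sample 5, against 22424 in sample 1 and 11748 in sample 4, with sample 4 lowest again. Hnrnpk, a binder of C-rich sequence, had 31793 in sample 5, against 25357 in sample 1 and 25245 in sample 4. A further Hnrnpk probe set had 16968, against 6665 in sample 1 and 16779 in sample 4. Sample 1 was thus far below the others by that probe set, whose range was 2.55-fold, and level with sample 4 by the brighter one. Hnrnpf, also a binder of G runs, had 19902 in sample 5, against 17645 in sample 1 and 12746 in sample 4, while another of its probe sets had 8272, 9991 and 9328 in samples 5, 1 and 4. Hnrnpu, a nuclear scaffold protein, had 14344 in sample 5, against 18677 in sample 1 and 18877 in sample 4. Another Hnrnpu probe set had 14129, against 6365 in sample 1 and 9048 in sample 4, the opposite order. On MOE430B, Sf3b2 also had a second probe set of opposite order, with 2604 in sample 1, against 1285 in sample 4 and 1362 in sample 5. Of the 147 probe sets, 41 can match several transcripts. The part of isoforms or such matches was not tested, since probe sequences were not used here.

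**Figure D4:**
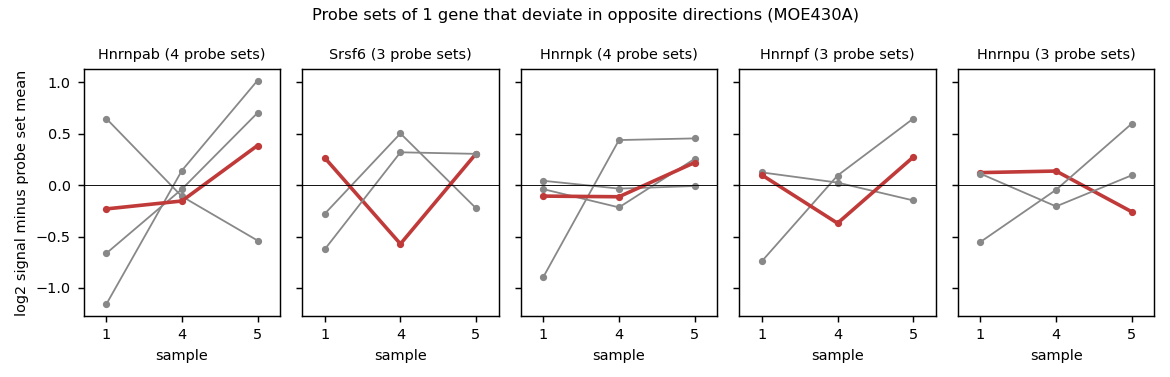
Probe sets past the filter of the 5 genes with the widest opposite deviations on MOE430A, as log2 signal minus the probe set's mean over samples 1, 4 and 5. The thick red line is the brightest probe set, grey lines are the others, and lines stand for no order of the samples. For Hnrnpab 3 lines are highest in sample 5 and 1 is lowest there.

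Other genes of the splicing pathway were read from lists of 140 genes in 9 classes, of which 116 were measured and 78 passed the filter on MOE430A. Their median deviation was 0.18 in sample 5, −0.16 in sample 1 and −0.10 in sample 4. Of the 78, 37 were highest in sample 5, against 34.4% of all genes. Set apart above in sample 5 were 6 of the 78, Ddx39a, Ncl, Npm1, Tardbp, Tra2a and Usp39, where 4.00% of all genes were. Set apart below in sample 1 were 5 of the 78, Lsm4, Lsm8, Prpf31, Sfpq and Strap, where 3.79% of all genes were. Prpf31 and Sfpq lay below the limit in sample 1 and were not detected. None of the 78 was set apart in the other directions. There the shares of all genes were 2.68% above in sample 1, 0.557% above and 0.985% below in sample 4, and 5.27% below in sample 5. The cofactors nearest to the SR proteins, those of the exon junction complex and SR-like proteins, had the highest median in sample 5, 0.54 over 12 genes. Tra2a, an SR-like activator, had 3322 in sample 5, against 859 in sample 1 and 1393 in sample 4. Its sample 1 signal lay below the limit, so it was not detected and passed the filter only through sample 5. The SR protein kinases, which phosphorylate SR proteins, had a median of 0.24 over 6 genes. Other nuclear RNA-binding proteins had 0.43 over 13 genes, and Tardbp, the gene for TDP-43, had 10301 in sample 5, against 3539 in sample 1 and 4597 in sample 4. The Prp19 complex, which activates the assembled spliceosome, had −0.017 over 8 genes, none of them highest in sample 5. The LSm proteins, among them Lsm10 of the U7 snRNP, had −0.50 over 5 genes in sample 1. Lsm10 itself was highest there, with 2187, against 2057 in sample 4 and 1155 in sample 5. The higher signals of sample 5 were thus unevenly spread over the pathway, as they were among the SR, hnRNP and snRNP genes. On MOE430B, 42 of the related genes passed the filter, with a median of 0.25 in sample 5, against 0.038 over all genes. Pcbp2 alone was set apart above in that sample, where 3.12% of all genes were. It had 3298 in sample 5, against 1302 in sample 1, below the limit, and 1252 in sample 4. It was therefore not detected there and passed the filter only through sample 5. On MOE430A, Pcbp2 had 8266 in sample 5, against 6516 in sample 1 and 8417 in sample 4. Of the Snrnp genes, whose symbols fall outside the rule, 5 passed the filter on MOE430A. Of these, 3 were highest in sample 5, against 34.4% of all genes. Snrnp40 had 2693 in sample 5, against 1021 in sample 1 and 1098 in sample 4, both below the limit. Snrnp27 was lowest in sample 5, with 1909, against 3638 in sample 1 and 2613 in sample 4.

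**Figure D5:**
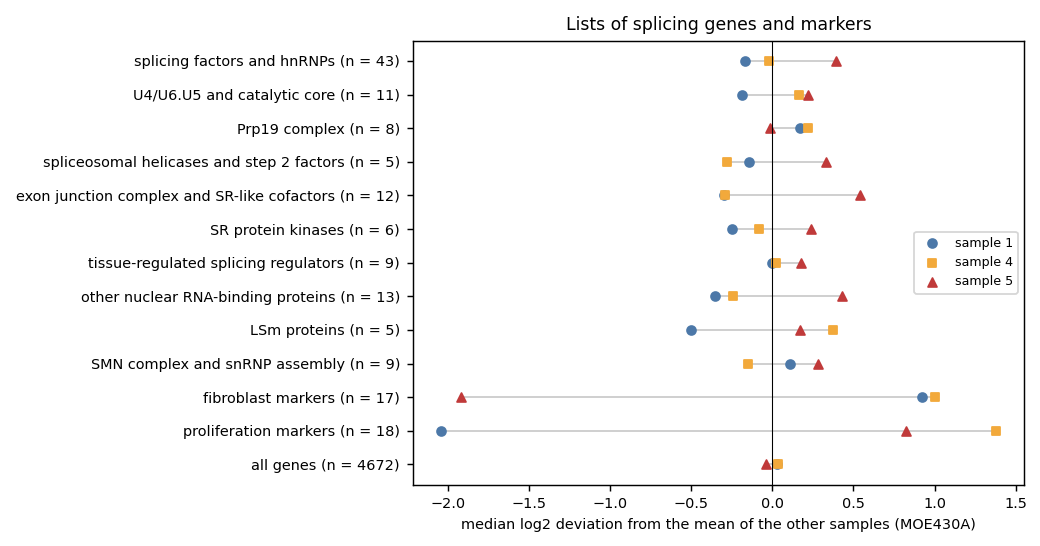
Median log2 deviation of samples 1 (circles), 4 (squares) and 5 (triangles) from the mean of the others on MOE430A, for the splicing factor and hnRNP genes, 9 lists of other splicing genes, fibroblast and proliferation markers, and all genes. n is the number of genes past the filter. The splicing factor and hnRNP genes lie at 0.39 in sample 5, against −1.92 for fibroblast markers and −0.039 for all genes.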

How the data were processed

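The deposited tables give, for every array, a linear signal intensity of each probe set, which the authors made in MAS5, per the submitters' processing notes. No version or settings are named in the sources used here. The 2% trimmed mean was about 1500 on each array (1501 on MOE430A, 1500 on MOE430B), and no detection calls were used. Other deposited files hold run settings per the file headers, used only to check design, sample and station, which matched the labels on 3 of 3 arrays of each design. Gene symbols came from the platform tables and RefSeq of GRCm38.p6, with no coordinates for probe sets.

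Signals were set to at least 1 before log2. The designs were analysed apart. Levels of probe sets were compared to pick the brightest of a gene and to apply the background limit, and were added in the marker sums. The background list held 113 genes, of which 101 were measured and 3 were detected. With 1 group of 3 samples no test was possible, and calls rest on size alone. The array number limits the precision. The members and lists were chosen with earlier results of these data known. Genes named with values were the first 2 measured of each role, the 10 widest and 5 narrowest ranges on MOE430A (5 and 3 on MOE430B), those not detected and up to 5 per design with probe sets opposed by over 1 log2 unit. Further genes were named after their values were seen. The code for the calls was run on simulated data with 200 changed genes, whose change was set well above the 2-fold cut. That checks the code only and does not bear on the smaller differences seen here. Alternatives are given in the closing section. Python 3.11.15, pandas 2.3.3, numpy 2.4.6 and matplotlib 3.10.9 were used.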

Additional observations from a re-analysis of the deposited data

How the results depend on the processing

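Of 257 values under alternatives, 222 were called the same, 34 moved and 1 reversed. A median or a deviation was called the same when it moved by less than 1 SD between the 3 samples, and a count when within 1.5 times, so a value called the same can still change in size. Detection covered 31 of 50 genes, against 20.9% of all genes, where most of a gene's probe sets had to be detected, and 47 of 50, against 43.7%, at the 90th percentile. On MOE430A the sample 5 median lay between 0.31 and 0.41 in every alternative run. The sample 1 median there was −0.26 after quantile normalisation and −0.35 without sample 4. In alternatives added after seeing the data, the genes highest in sample 5 on MOE430A were 26 of 43 after quantile normalisation (33.1% of all genes), 26 of 41 without probe sets ending in _s_at or _x_at (34.9%) and 51 of 79 by probe sets (36.2%). On MOE430B, quantile normalisation gave 4 of 11 (35.5%).

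Without those endings the sample 1 median was −0.43 on MOE430A and 1 gene was set apart above in sample 5 (4.09% of all genes). On MOE430B, with 5 genes left, the sample 5 median reversed to −0.033, the sample 4 median was 0.30 and 1 gene was highest in sample 5 (36.0% of all). In the following counts the share of all genes or probe sets stands in brackets. At 1.5-fold on MOE430A, 1 gene lay above (8.67%) and 10 below (9.76%) in sample 1, 4 below in sample 4 (4.05%) and 7 above in sample 5 (10.6%). On MOE430B, 1 lay below in sample 1 (11.3%), and in sample 4 1 lay above (5.23%) and 1 below (6.92%). By probe sets, 3 lay below in sample 1 (4.17%) and 5 above in sample 5 (4.57%) on MOE430A, and 1 below in sample 1 on MOE430B (4.84%). With no filter on MOE430B, 1 lay above (7.34%) and 2 below (8.60%) in sample 1, and 2 above (6.27%) and 3 below (8.98%) in sample 5.

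Leaving out each sample in turn gave a sample 4 median of −0.31 to 0.21 on MOE430A and −0.083 to 0.22 on MOE430B. The sample 5 median on MOE430B was 0.083 to 0.25. On MOE430A, 2 (4.89%) to 10 (11.1%) genes lay below in sample 1, 2 (7.76%) to 10 (11.1%) above in sample 5 and 0 (10.3%) to 1 (5.02%) above in sample 1. In sample 4, 0 (6.98%) to 2 (4.89%) lay above and 1 (5.02%) to 2 (7.76%) below. On MOE430B, 1 lay below in sample 1 (7.01% and 9.43%), 0 (7.47%) to 1 (9.43%) above in sample 5 and 0 (6.90%) to 1 (7.01%) above in sample 4. The deviation of Srsf4 in sample 5 moved to −0.098 after quantile normalisation, and that of Hnrnpc was −0.16. Except where an alternative leaves fewer genes or samples, the cause was not tested. No paired analysis was possible because there is only 1 group of samples. The background limit of MOE430B, from 13 probe sets, limits detection there.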
